A study of Homo sapiens with 15 samples.

Results

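The human mitochondrial genome carries 37 genes, and all 37 are described here across RNA-seq libraries of HEK293T cells, a human embryonic kidney line. They are the genes that GENCODE v29 places on chrM, matched by Ensembl identifier among the 58735 genes of the tables. They comprise 13 mRNA genes, 2 rRNA genes and 22 tRNA genes. All 37 passed the filter on low values (at least 0.5 FPKM in at least 3 libraries), as did 16175 genes in all. FPKM is the number of fragments scaled to gene length and library depth.

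The 15 libraries fall into 5 groups of 3 wells. The Non-target group received Cas9 with a guide that has no target in the genome. The knockout groups received Cas9 with a guide against the gene in their name, and below they are listed in alphabetical order (C9orf89-CKO first, then MAGI2-CKO, MLPH-CKO and last RHBDD2-CKO) where values stand side by side. All 5 groups were lentivirally transduced, selected with puromycin and grown from single cells, so each group is 1 clone, and a difference between groups cannot be told apart from a difference between clones. The wells of a group are separate cultures of that clone in six-well plates, so p-values measure only the spread between wells. The study chose these genes because their loss in supporting cells protected co-cultured leukemia cells from cytarabine, and it sequenced the supporting cells to describe them. The HEK293T cells were sequenced without leukemia cells. Assigned fragments per library ranged from 15517856 to 19489918.

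The targeted genes were checked first. C9orf89 (listed as CARD19) was at 6.56 ± 1.04 FPKM (SD, n = 3) in Non-target and 4.32 ± 0.0421 in C9orf89-CKO, but also 4.79 ± 0.339 in RHBDD2-CKO. RHBDD2 was at 33.5 ± 5.50 FPKM in Non-target and 12.4 ± 1.18 in RHBDD2-CKO, but also 13.8 ± 2.15 in MAGI2-CKO. MAGI2 was at 0.115 ± 0.0108 FPKM in Non-target and 0.0680 ± 0.0195 in MAGI2-CKO, with means of 0.0718 to 0.0839 in the other clones. MLPH was at 0 FPKM in every library, so its RNA could not check the MLPH-CKO label. A Cas9 deletion of a few bases need not lower a transcript, so these levels check the labels only in part. The study reported loss of C9orf89 and RHBDD2 protein in its HEK293T clones by western blot, and of MAGI2 and MLPH protein by flow cytometry. Of 10 markers of HEK293T cells fixed for this check, 9 had a median of at least 1 FPKM over the 15 libraries. Some were far lower in single clones. NEFM was at 0.0705, 0 and 0.0117 FPKM in MAGI2-CKO against 38.4, 21.4 and 21.8 in Non-target. NEFL was at 0.903, 0.914 and 1.14 FPKM in RHBDD2-CKO against 16.8, 20.5 and 19.1. The 8 leukocyte markers summed to between 0.269 and 1.13 FPKM per library, with MPO at 0 in all 15.

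Mitochondrial DNA is a small circle that is transcribed from both strands into long precursors. The heavy-strand transcript holds both rRNAs, most tRNAs and all mRNAs but one. The light-strand transcript holds MT-ND6 and the remaining tRNAs. tRNAs lie between the longer genes, and their excision by RNase P at the 5′ end and ELAC2 at the 3′ end releases the mRNAs and rRNAs. Most of the mRNAs, though not all, are then polyadenylated by MTPAP. All the mRNAs encode core subunits of respiratory complexes I, III and IV or of ATP synthase. Each cell holds many copies of the genome. The libraries were made by selecting poly(A) RNA, which in general captures RNAs with short or no tails, such as these rRNAs and tRNAs, inefficiently. How far it did so here was not measured.

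Several of these genes touch or overlap, and the sequences below show the overlaps that bear on the counts. MT-ATP8 (chrM:8366-8572, GRCh38, plus strand) ends inside MT-ATP6, and the capitals mark the 46 bases that both genes use in different reading frames. Upstream it lies next to MT-TK, so the longest fragment that touches MT-ATP8 alone is 162 bases.
MT-ATP8: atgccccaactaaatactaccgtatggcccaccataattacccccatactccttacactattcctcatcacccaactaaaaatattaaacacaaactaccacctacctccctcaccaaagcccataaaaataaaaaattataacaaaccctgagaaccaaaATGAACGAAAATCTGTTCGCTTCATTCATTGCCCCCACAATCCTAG
MT-ND4L and MT-ND4 share 7 bases, in capitals in the last 30 bases of the first (chrM:10737-10766) and the first 30 of the second (chrM:10760-10789).
MT-ND4L: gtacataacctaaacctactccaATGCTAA
MT-ND4: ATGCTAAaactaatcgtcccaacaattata

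The tRNA genes whose values passed a test against Non-target, and MT-TH, which differed between wells, are shown next with the anticodon letters in capitals. MT-TL1 (tRNA-Leu(UUR)) lies at chrM:3230-3304 between MT-RNR2 and MT-ND1, and it also holds the site at which the terminator MTERF1 binds. MT-TV (chrM:1602-1670) lies between the rRNA genes. MT-TE (chrM:14674-14742, minus strand) separates MT-ND6 from MT-CYB. MT-TT lies at chrM:15888-15953, MT-TC at chrM:5761-5826 (minus strand), MT-TY at chrM:5826-5891 (minus strand) and MT-TH at chrM:12138-12206.
MT-TL1: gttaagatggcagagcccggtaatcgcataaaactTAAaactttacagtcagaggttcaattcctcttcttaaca
MT-TV: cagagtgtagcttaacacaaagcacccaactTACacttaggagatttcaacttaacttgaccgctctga
MT-TE: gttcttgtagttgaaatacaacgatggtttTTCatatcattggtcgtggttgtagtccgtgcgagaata
MT-TT: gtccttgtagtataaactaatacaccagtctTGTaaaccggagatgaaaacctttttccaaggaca
MT-TC: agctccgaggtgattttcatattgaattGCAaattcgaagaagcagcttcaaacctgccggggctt
MT-TY: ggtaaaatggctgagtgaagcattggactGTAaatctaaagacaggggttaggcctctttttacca
MT-TH: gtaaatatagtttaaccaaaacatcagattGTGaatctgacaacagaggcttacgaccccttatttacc
These genes are 66 to 75 bases long. The longest fragment that touches 1 of them alone is between 68 bases (MT-TT) and 96 bases (MT-TC), and 77 bases for MT-TL1. How reads that touch 2 genes were counted is not given in the sources used here. The part of fragment length in the tRNA values was not tested. MT-TC and MT-TY share 1 base on the minus strand.

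Levels per length differed widely between the genes. Over all 15 libraries, the mean of the 13 mRNAs ranged from 266 FPKM for MT-ATP8 to 4760 for MT-CO2, with a median of 1382. MT-CO2, MT-ATP6, MT-CO3 and MT-CO1, which encode subunits of cytochrome c oxidase and ATP synthase, were the 4 highest, at 4760, 4002, 2876 and 2808 FPKM. MT-ND5, the longest mRNA gene, was at 555 FPKM and MT-ND6 at 764. MT-RNR2 (16S rRNA) was at 993 FPKM and MT-RNR1 (12S rRNA) at 385. The tRNAs ranged from 0.501 FPKM for MT-TW to 235 for MT-TC, with a median of 6.80. MT-TC, MT-TN (161 FPKM), MT-TP (130), MT-TL1 (66.9) and MT-TY (60.5) were the 5 highest, and all of these but MT-TL1 are light-strand genes. Only 10 of the 22 tRNA genes had a fragment in every library. For a gene of 70 bases, 3 fragments corresponded to between 2.20 and 2.77 FPKM, so most tRNA values rest on few fragments.

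Before the groups are compared, 1 feature of the wells has to be set out. The wells numbered 1 stood apart from wells 2 and 3 of their own group in MT-ATP8, a gene singled out after its values were seen. In Non-target, MT-ATP8 was at 784 FPKM in well 1 and at 31.5 and 44.3 in wells 2 and 3. In C9orf89-CKO it was at 862 FPKM against 20.4 and 16.5, and in MAGI2-CKO at 1054 against 54.6 and 69.3. In MLPH-CKO it was at 654 FPKM against 29.7 and 34.2, and in RHBDD2-CKO at 315 against 15.4 and 10.1. Well 1 was thus 17.0 to 46.7 times the mean of the other wells in the 5 groups, with no overlap.

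MT-ATP6, which lies on the same mature transcript, was at 0.714 to 1.99 times in well 1, above 1 in 3 groups and below it in MLPH-CKO and RHBDD2-CKO. The ratio of MT-ATP8 to MT-ATP6 fragments was between 4.33% and 5.19% in the 5 wells numbered 1 and between 0.117% and 0.537% in the other 10. The ratio of MT-ND4L to MT-ND4 fragments was also highest in well 1 of all 5 groups, at 1.19 to 1.70 times the mean of wells 2 and 3. MT-ND6 relative to the heavy-strand mRNAs was highest in well 1 of all 5 groups too, at 1.34 to 1.92 times. The numbers were permuted within groups (7776 arrangements). The statistic covered all 3 numbers at once, so it has no direction and does not single out well 1. By this permutation test the exact p was 0.00772 for MT-ATP8 to MT-ATP6, 0.010 for MT-ND4L to MT-ND4 and 0.00926 for MT-ND6. Each adjusted to 0.0167 over 5 measures, and 4 of the 5 were added after the values were seen. The mitochondrial share of fragments (exact p = 0.316) and the rRNA to mRNA ratio (exact p = 0.316) did not pass that test.

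Across all 16175 genes tested, 2 were at least 4-fold higher in well 1 than in both other wells of all 5 groups, MT-ATP8 and AL355032.1 of chromosome 14. None was for wells numbered 2 or 3. At 2-fold, 10 genes were higher in well 1, and 3 of them were mitochondrial (MT-ATP8, MT-TH and MT-TS2). A further 8 were lower there by as much, none of them mitochondrial, although MTCO3P12 is a nuclear copy of MT-CO3 with a mean of 0.513 FPKM. MT-TH was at 48.8, 17.8 and 16.5 FPKM in Non-target wells 1 to 3, and its well 1 was 2.70 to 7.52 times the mean of the others over the 5 groups. Median log2 ratios of well 1 to the others over nuclear genes grouped by length lay between -0.55 and 0.51 in every group and length class. RN7SL2, the signal recognition particle RNA, which has no poly(A) tail, was in the median of the groups 2.41 times as high in well 1. Its part in the difference between wells was not tested, and whether wells with the same number were handled together is not given in the sources used here.

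**Figure D1:**
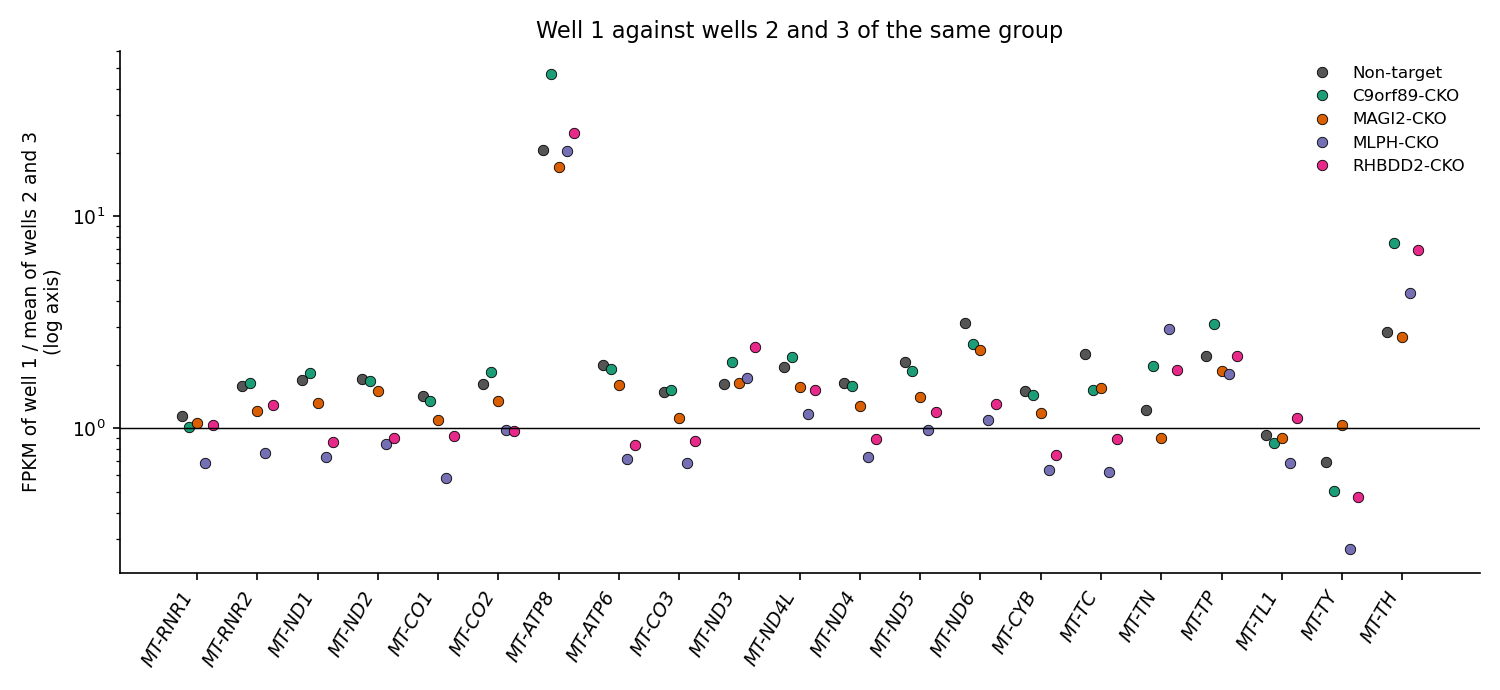
FPKM of well 1 divided by the mean of wells 2 and 3 (log axis) for the 2 rRNAs, 13 mRNAs and 6 tRNAs, with 1 point per group. MT-ATP8 stands apart at 17.0 to 46.7, MT-TH lies at 2.70 to 7.52, and MT-RNR1 lies near 1 in every group but MLPH-CKO.

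Mitochondrial genes took 6272438 of 262601551 assigned fragments, or 2.39%. In Non-target the share was 2.63%, 1.57% and 1.61% in wells 1 to 3, and in C9orf89-CKO 3.10%, 1.88% and 1.87%. In MAGI2-CKO it was 3.28%, 2.44% and 2.64%, and in MLPH-CKO 2.54%, 3.91% and 2.89%. In RHBDD2-CKO it was 1.65%, 1.73% and 1.71%. The exact binomial 95% interval of each library was within 0.0088 points of its value, which covers counting error only. RHBDD2-CKO was the least variable group, and its 3 wells lay below all wells of the other 3 clones.

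Group means were 1.94% ± 0.597 for Non-target, 2.28% ± 0.707 for C9orf89-CKO, 2.79% ± 0.441 for MAGI2-CKO, 3.11% ± 0.709 for MLPH-CKO and 1.70% ± 0.0388 for RHBDD2-CKO (SD, n = 3). In order of these means, no group was separated by its wells from its neighbour. The log2 difference of RHBDD2-CKO from Non-target was -0.15 and turned to 0.091 without well 1 of Non-target, and that of C9orf89-CKO was 0.24 and turned to -0.0034 without its own well 1. The exact permutation test over all 1401400 ways to form 5 groups of 3 gave p = 0.0410 for the share, which adjusted to 0.0616 over the 3 measures tested and did not pass 0.05. Permuted only among wells of the same number, the exact p was 0.0455 before and after adjustment and passed, although the numbers were not taken as pairs. Without the wells numbered 1, the exact p was 0.00106 over 945 arrangements (adjusted 0.003175), the smallest value that so many arrangements allow. Those wells were left out after the data were seen. No clone could be separated from Non-target with 3 wells against 3, for which the smallest 2-sided exact p is 0.1. The p was 0.5 for C9orf89-CKO, 0.2 for MAGI2-CKO, 0.2 for MLPH-CKO and 1 for RHBDD2-CKO. In bulk RNA, more mitochondrial DNA, more transcripts per genome and less nuclear-encoded RNA cannot be told apart.

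Over the 15 libraries, mRNAs took 89.9% to 94.0% of the mitochondrial fragments, rRNAs 5.81% to 9.89% and tRNAs 0.148% to 0.411%. The rRNA to mRNA ratio was 0.0618, 0.0696 and 0.0709 in the Non-target wells and higher in every well of the 4 clones. It was 0.0946, 0.0997 and 0.110 in C9orf89-CKO and 0.0923, 0.0981 and 0.108 in MAGI2-CKO. It was 0.0901, 0.0878 and 0.104 in MLPH-CKO and 0.0927, 0.0719 and 0.0750 in RHBDD2-CKO. The ratio of geometric means to Non-target was 1.504, 1.47, 1.39 and 1.18 over the clones. The exact permutation p over the 5 groups was 0.00273 (adjusted 0.00818). Permuted only among wells of the same number, it was 0.0034 (adjusted 0.0102). Without the wells numbered 1 it was weaker, at 0.0243 over 945 arrangements (adjusted 0.0328). Each clone reached the smallest p of 0.1 against Non-target. RHBDD2-CKO came closest to Non-target, and without the wells numbered 1 its log2 difference was 0.064 rather than 0.24.

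**Figure D2:**
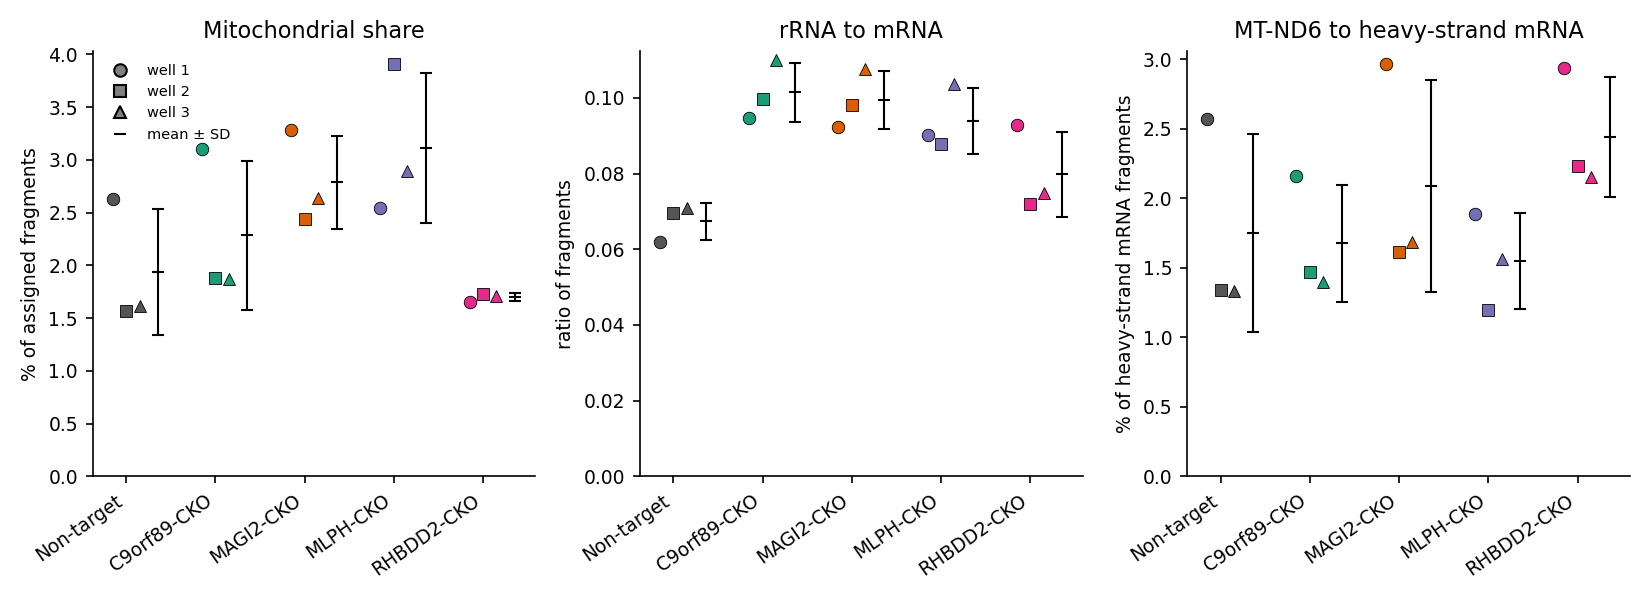
Mitochondrial share of assigned fragments (%), rRNA to mRNA fragment ratio and MT-ND6 relative to heavy-strand mRNA fragments (%) in each of the 15 libraries, with symbols for wells 1 to 3 and black bars for the mean ± SD of the group. All wells of the clones lie above the 3 Non-target wells in the rRNA to mRNA ratio, and well 1 is highest in every group for MT-ND6.

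The genes were then compared 1 by 1, each clone against Non-target, with limma across all genes tested. Fold changes are on the log2(FPKM + 0.1) scale and p-values were adjusted over the 16175 genes. All 4 comparisons share the Non-target wells. In C9orf89-CKO, 3 of the 37 mitochondrial genes passed and all 3 were higher, beside 26.0% of all genes tested. For MAGI2-CKO the count was 5, all higher, beside 36.1%, and for MLPH-CKO 8, all higher, beside 30.1%. RHBDD2-CKO had 3 higher and 1 lower, beside 34.1%. In each clone the share of the 37 that passed was below that of all genes. Without the wells numbered 1, the counts were 9, 19, 24 and 12 of 37, beside 32.4%, 40.4%, 36.9% and 42.0% of all genes in that fit. Leaving out well 1 of Non-target alone gave 13 in MAGI2-CKO, beside 33.7%, and 15 in MLPH-CKO, beside 26.8%. Leaving out its well 2 gave 1, 3 and 1 in every clone but MLPH-CKO, beside 20.7%, 31.1% and 26.4%.

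Among the 13 mRNAs, which encode respiratory chain subunits, MT-CYB and MT-CO3 rose in MLPH-CKO and none passed in the other clones. MT-CYB encodes cytochrome b of complex III. It was at 1293, 863 and 855 FPKM in Non-target and 1265, 2379 and 1591 in MLPH-CKO, so the groups overlapped. The log2 fold change was 0.78 (SE 0.24, limma adjusted p = 0.0283). MT-CO3, a core subunit of cytochrome c oxidase, was at 3047, 2103 and 2001 FPKM in Non-target and at 3047, 5434 and 3425 in MLPH-CKO. The estimate was 0.71 (SE 0.24, limma adjusted p = 0.0386). The call of MT-CYB held in 20 of 27 alternatives and that of MT-CO3 in 15. Both were lost without the filter and without either of wells 2 and 3 of Non-target or of MLPH-CKO. With quantile normalization both were lost too, and MT-ND2, a complex I subunit, was the mRNA that passed (0.59, adjusted p = 0.0409).

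In MLPH-CKO, 12 of the 13 mRNAs had a positive estimate, with a median log2 fold change of 0.54 against -0.01 over all genes. MT-ATP8 was the exception, at -0.24 (SE 1.95). With quantile normalization the median was 0.32, with 10 of 13 positive. With voom, which called 30% of all genes, 6 of the 13 passed. In MAGI2-CKO all 13 estimates were positive with a median of 0.51, but no mRNA passed, and with quantile normalization the median was 0.29, with 12 positive. There, 4 had an unadjusted p under 0.05 in limma, and 3 passed with voom, which called 36% of all genes. Examples from MAGI2-CKO are MT-ND1, the complex I subunit, at 0.68 (SE 0.27, adjusted p = 0.0679), and MT-CO1, the catalytic subunit of cytochrome c oxidase, at 0.54 (SE 0.22, adjusted p = 0.0782). In C9orf89-CKO the median was 0.15 and in RHBDD2-CKO it was -0.33. The latter was -0.022 with quantile normalization and -0.043 in wells 2 and 3 alone. No mRNA had an unadjusted p under 0.05 in these clones, and none passed with voom.

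Which wells entered the fit moved these counts. Well 1 of Non-target was above wells 2 and 3 in all 13 mRNAs, for example 4969 against 2465 and 2540 FPKM for MT-ATP6. In MLPH-CKO the order was the other way for MT-CO1, whose well 1 was at 0.585 times the mean of the others. Without well 1 of Non-target alone, 7 of the 13 mRNAs were higher in MAGI2-CKO and 8 in MLPH-CKO, beside the 33.7% and 26.8% of all genes given above. Without the wells numbered 1 of all 5 groups, 11 of the 13 were higher in MAGI2-CKO and 11 in MLPH-CKO, beside 40.4% and 36.9%. In that fit MT-CO1 was higher by 0.67 in MAGI2-CKO (limma adjusted p = 0.00185) and by 1.05 in MLPH-CKO (adjusted p = 0.000323). Over all alternatives, the adjusted p of MT-CYB in MLPH-CKO ranged from 0.00121 to 0.136, and that of MT-CO3 from 0.00345 to 0.292. The fit without wells 1 was added after the data were seen. In C9orf89-CKO it gave 1 mRNA higher and 2 lower, beside 32.4% of all genes, and in RHBDD2-CKO 2 higher and 2 lower, beside 42.0%.

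**Figure D3:**
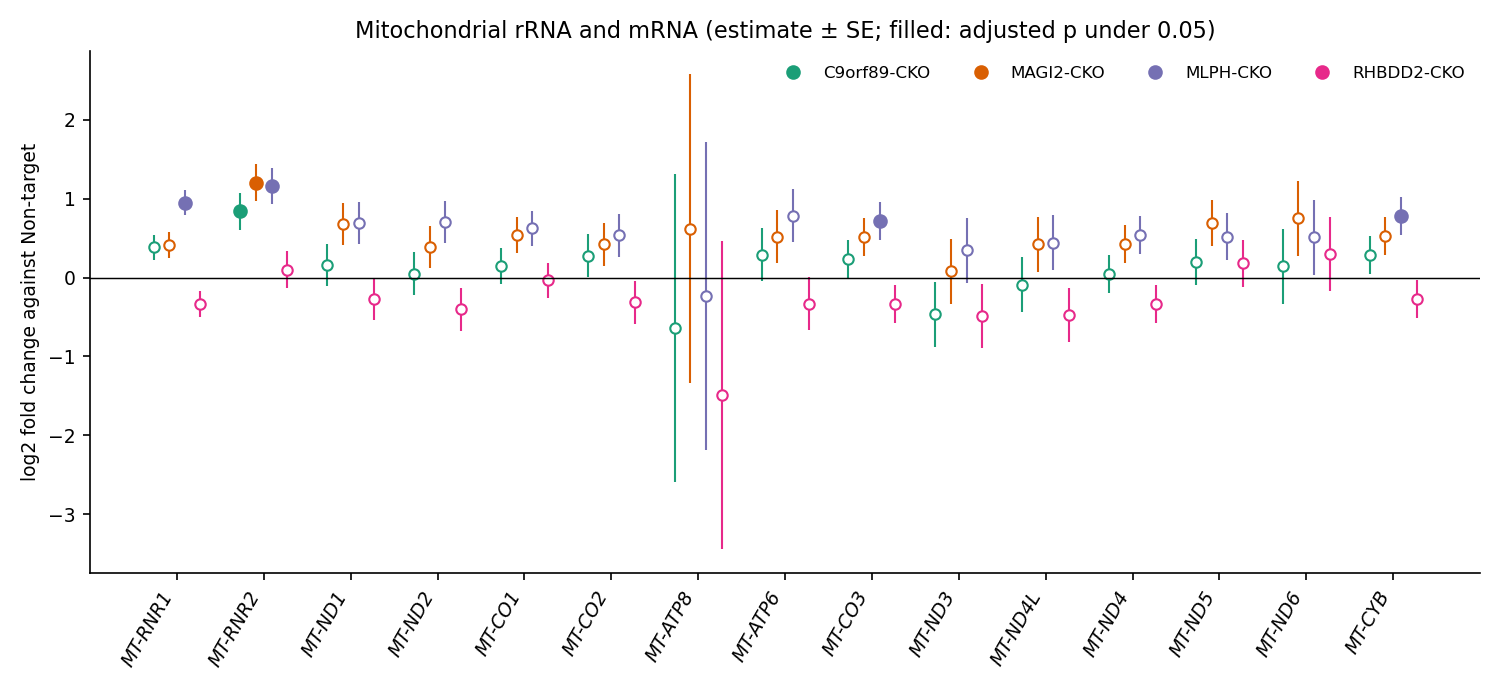
Log2 fold change against Non-target of the 2 rRNAs and 13 mRNAs in gene order, with 1 colour per clone, bars of ± SE and filled points where the limma adjusted p is under 0.05. MT-RNR2 is filled in 3 clones, MT-RNR1, MT-CO3 and MT-CYB in MLPH-CKO, and MT-ATP8 has by far the widest bars.

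Of the 2 rRNAs, MT-RNR2 rose in 3 clones and MT-RNR1 in 1. MT-RNR2, the large-subunit rRNA of the mitochondrial ribosome, was at 791, 488 and 513 FPKM in Non-target. It was at 1451, 881 and 887 in C9orf89-CKO, 1527, 1147 and 1371 in MAGI2-CKO, and 1093, 1549 and 1307 in MLPH-CKO. All 9 of these wells lay above all Non-target wells. RHBDD2-CKO, at 739, 569 and 579 FPKM, overlapped with Non-target. In limma, C9orf89-CKO was higher by 0.84 on the log2 scale (SE 0.23, adjusted p = 0.0180). MAGI2-CKO was higher by 1.20 (adjusted p = 0.00140) and MLPH-CKO by 1.16 (adjusted p = 0.00233), while RHBDD2-CKO differed by 0.10 (adjusted p = 0.781). Of 27 alternatives, the call held in 27 for MAGI2-CKO, 27 for MLPH-CKO and 22 for C9orf89-CKO.

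MT-RNR1, the small-subunit rRNA, was at 328, 291 and 283 FPKM in Non-target and 451, 706 and 608 in MLPH-CKO, without overlap. It was higher there by 0.95 on the log2 scale (SE 0.16, limma adjusted p = 0.000710). The other estimates did not pass, at 0.38 (adjusted p = 0.0982) for C9orf89-CKO, 0.41 (adjusted p = 0.0613) for MAGI2-CKO and -0.33 (adjusted p = 0.127) for RHBDD2-CKO. MT-RNR1 passed in 5 of 27 alternatives in MAGI2-CKO, voom among them (adjusted p = 0.0305), in 2 in C9orf89-CKO and in 1 in RHBDD2-CKO. The rRNAs are cut from the same precursor, yet their fragment ratio varied between libraries. MT-RNR2 had 2.74 to 3.94 times the fragments of MT-RNR1 in Non-target and 5.24 to 5.98 times in MAGI2-CKO.

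The clones were also compared with each other, in 6 comparisons. Against RHBDD2-CKO, 12 of 37 mitochondrial genes were higher in MAGI2-CKO, beside 41.6% of all genes tested, and 14 were higher in MLPH-CKO, beside 37%. C9orf89-CKO had 4 higher, beside 29.3%. None was lower in these 3 comparisons. Without well 1 of MAGI2-CKO its count was 5, beside 39.0%, and without well 1 of C9orf89-CKO that clone's was 2, beside 26.3%. Between C9orf89-CKO and MAGI2-CKO 1 gene passed, beside 22.5%. Between C9orf89-CKO and MLPH-CKO 2 passed, beside 14.2%, and between MAGI2-CKO and MLPH-CKO 2 passed, beside 21.2%. With wells 2 and 3 alone these 3 counts were 12, 16 and 10, beside 31.2%, 19.5% and 25.8%. With 1 library left out they ranged from 1 to 4, 0 to 3 and 0 to 4. The shares of all genes in those fits are not given here, so these ranges are not read against them.

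Relative to RHBDD2-CKO, 8 of the 13 mRNAs were higher in MLPH-CKO, beside 37% of all genes tested, and 6 in MAGI2-CKO, near the 41.6% of all genes. With quantile normalization none passed in either, and the estimates of MT-CO1 and MT-CO2 in MLPH-CKO turned negative. MT-ND2 was at 835, 936.8 and 908 FPKM in RHBDD2-CKO and 1744, 2513 and 1620 in MLPH-CKO. That is a log2 difference of 1.11 (SE 0.27, limma adjusted p = 0.00602). MT-CYB, at 670, 908 and 887 FPKM in RHBDD2-CKO, was lower than in MLPH-CKO by 1.05 (SE 0.24, adjusted p = 0.00425). MT-CO3 differed by 1.05 (adjusted p = 0.00396), MT-ATP6 by 1.11 (adjusted p = 0.0196) and MT-ND1 by 0.96 (adjusted p = 0.0134). For MAGI2-CKO, MT-ND1 was 0.95 higher (SE 0.27, adjusted p = 0.0127), with 489, 567 and 567 FPKM in RHBDD2-CKO against 1253, 895 and 1005. In all of these the wells of the compared groups did not overlap.

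Both rRNAs were higher in each of the other clones than in RHBDD2-CKO. MT-RNR1 was at 245, 229 and 241 FPKM in RHBDD2-CKO, below every other well of the series. MLPH-CKO exceeded it by 1.28 on the log2 scale (limma adjusted p = 4.64e-05), MAGI2-CKO by 0.75 (adjusted p = 0.00222) and C9orf89-CKO by 0.72 (adjusted p = 0.00437). MT-RNR1 was also lower in C9orf89-CKO and MAGI2-CKO than in MLPH-CKO, by 0.56 (adjusted p = 0.0330) and 0.54 (adjusted p = 0.0303). The wells of C9orf89-CKO (400, 322 and 466 FPKM) overlapped with those of MLPH-CKO. These calls held in 18 and 19 of 26 alternatives and were lost without the filter and with quantile normalization. Without wells 1, 13 of 13 mRNAs were higher in MLPH-CKO than in RHBDD2-CKO, beside 39.4% of all genes that passed in that fit, and 12 of 13 in MAGI2-CKO, beside 45.8%.

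MT-ND6, the complex I subunit that alone among the mRNAs is encoded on the light-strand transcript, was set against the other 12. Its fragments were 2.57%, 1.34% and 1.33% of the heavy-strand mRNA fragments in Non-target and 2.16%, 1.47% and 1.40% in C9orf89-CKO. In MAGI2-CKO they were 2.96%, 1.61% and 1.69%, in MLPH-CKO 1.89%, 1.20% and 1.56%, and in RHBDD2-CKO 2.94%, 2.23% and 2.15%. RHBDD2-CKO had the highest group mean, 2.44% ± 0.433, and MLPH-CKO the lowest, 1.55% ± 0.346. The exact permutation p over the 5 groups was 0.326 (adjusted 0.326). Permuted only among wells of the same number, it was 0.00993 (adjusted 0.0149), although the numbers were not taken as pairs. Without wells 1 it was 0.0328 over 945 arrangements (adjusted 0.0328). In FPKM, MT-ND6 was at 1192, 376 and 379 in Non-target, and no clone passed the limma test against it, the smallest adjusted p being 0.247 in MAGI2-CKO. The libraries do not mark strand, so light-strand fragments over heavy-strand genes are not told apart from their sense transcripts. The part of poly(A) selection in the MT-ND6 ratio was not tested.

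The tRNAs rest on far fewer fragments than the mRNAs, 481 to 1519 per library in all. They took 0.300% to 0.411% of mitochondrial fragments in RHBDD2-CKO and 0.148% to 0.245% in the other groups, a separation seen after the fact and not tested. Against Non-target, 2 of the 22 passed in C9orf89-CKO and 4 in each other clone, smaller shares than the 26.0%, 36.1%, 30.1% and 34.1% of all genes. Without the wells numbered 1, the tRNA counts were 5, 7, 11 and 8 of 22, beside 32.4%, 40.4%, 36.9% and 42.0% of all genes in that fit. In the fit of all 15 libraries, MT-TL1 was the only one of the 37 genes that passed in opposite directions in different clones.

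MT-TL1 was at 49.0, 54.3 and 50.9 FPKM in Non-target, from 59 to 67 fragments. It was at 98.9, 113 and 105 FPKM in MAGI2-CKO and 65.7, 120 and 71.3 in MLPH-CKO, above every Non-target well. It was at 30.8, 29.9 and 25.4 FPKM in RHBDD2-CKO, from 31 to 42 fragments, below every other well of the series. C9orf89-CKO lay at 56.5, 72.5 and 60.01. It rose by 1.04 in MAGI2-CKO (SE 0.18, limma adjusted p = 0.000607) and by 0.68 in MLPH-CKO (SE 0.18, adjusted p = 0.0120). It fell by 0.84 in RHBDD2-CKO (SE 0.18, adjusted p = 0.00315) and was 0.29 higher, without passing, in C9orf89-CKO (adjusted p = 0.272). Between clones, MT-TL1 in RHBDD2-CKO was lower than in C9orf89-CKO by 1.13 (adjusted p = 0.000418). Its well 1 was at 0.689 to 1.11 times the mean of the others over the 5 groups.

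MT-TV, the valine tRNA, was at 5.42, 3.74 and 3.30 FPKM in Non-target, from 4 to 6 fragments. It was at 9.52, 24.6 and 31.6 FPKM in MLPH-CKO, from 12 to 40 fragments, without overlap. The log2 fold change was 2.24 (SE 0.39, limma adjusted p = 0.000963) there and 1.26 (SE 0.39, adjusted p = 0.0237) in MAGI2-CKO, where the call held in 22 of 27 alternatives. MT-TE, the glutamate tRNA of the light-strand transcript, was at 15.3, 3.74 and 4.95 FPKM in Non-target. It was at 30.2, 56.9 and 37.9 in MLPH-CKO, with a log2 fold change of 2.59 (adjusted p = 0.00333). In MAGI2-CKO it was 2.16 (adjusted p = 0.00812) and in C9orf89-CKO 1.79 (adjusted p = 0.0295), where the call held in 20 of 27.

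MT-TT, the threonine tRNA, passed in all 4 clones, but on 7, 1 and 0 fragments in the Non-target wells. C9orf89-CKO had 20, 25 and 13 fragments and MAGI2-CKO 8, 7 and 13. MLPH-CKO had 8, 39 and 25 fragments and RHBDD2-CKO 9, 9 and 7. The mean was 2.53 FPKM in Non-target and 17.1, 7.27, 19.6 and 7.36 in the clones. Its fitted fold changes depend on the pseudocount and are not given. The limma calls in RHBDD2-CKO (adjusted p = 0.0444) and MAGI2-CKO (adjusted p = 0.0462) held in only 9 and 8 of 27 alternatives.

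In RHBDD2-CKO, MT-TC and MT-TY, the adjoining cysteine and tyrosine tRNAs, rose. MT-TC was at 280, 130 and 121 FPKM in Non-target and at 306, 352 and 333 in RHBDD2-CKO, without overlap. Its log2 fold change was 1.01 (SE 0.32, limma adjusted p = 0.0289). MT-TY was at 21.7, 20.6 and 42.3 FPKM in Non-target and 50.9, 132 and 81.0 in RHBDD2-CKO, with a log2 fold change of 1.61 (SE 0.50, adjusted p = 0.0239). Both calls were lost without Non-target well 2 and without RHBDD2-CKO well 2 or 3. The call of MT-TC held in 21 of 27 alternatives and that of MT-TY in 23. MT-TN, the asparagine tRNA beside them, did not pass there (0.03, adjusted p = 0.968). MT-TN was at 232, 264 and 252 FPKM in MAGI2-CKO and at 156, 63.3 and 42.6 in MLPH-CKO, a log2 difference of 1.73 (adjusted p = 0.0141). MT-TI also passed in the comparisons with RHBDD2-CKO, on 0, 2 and 2 fragments there.

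**Figure D4:**
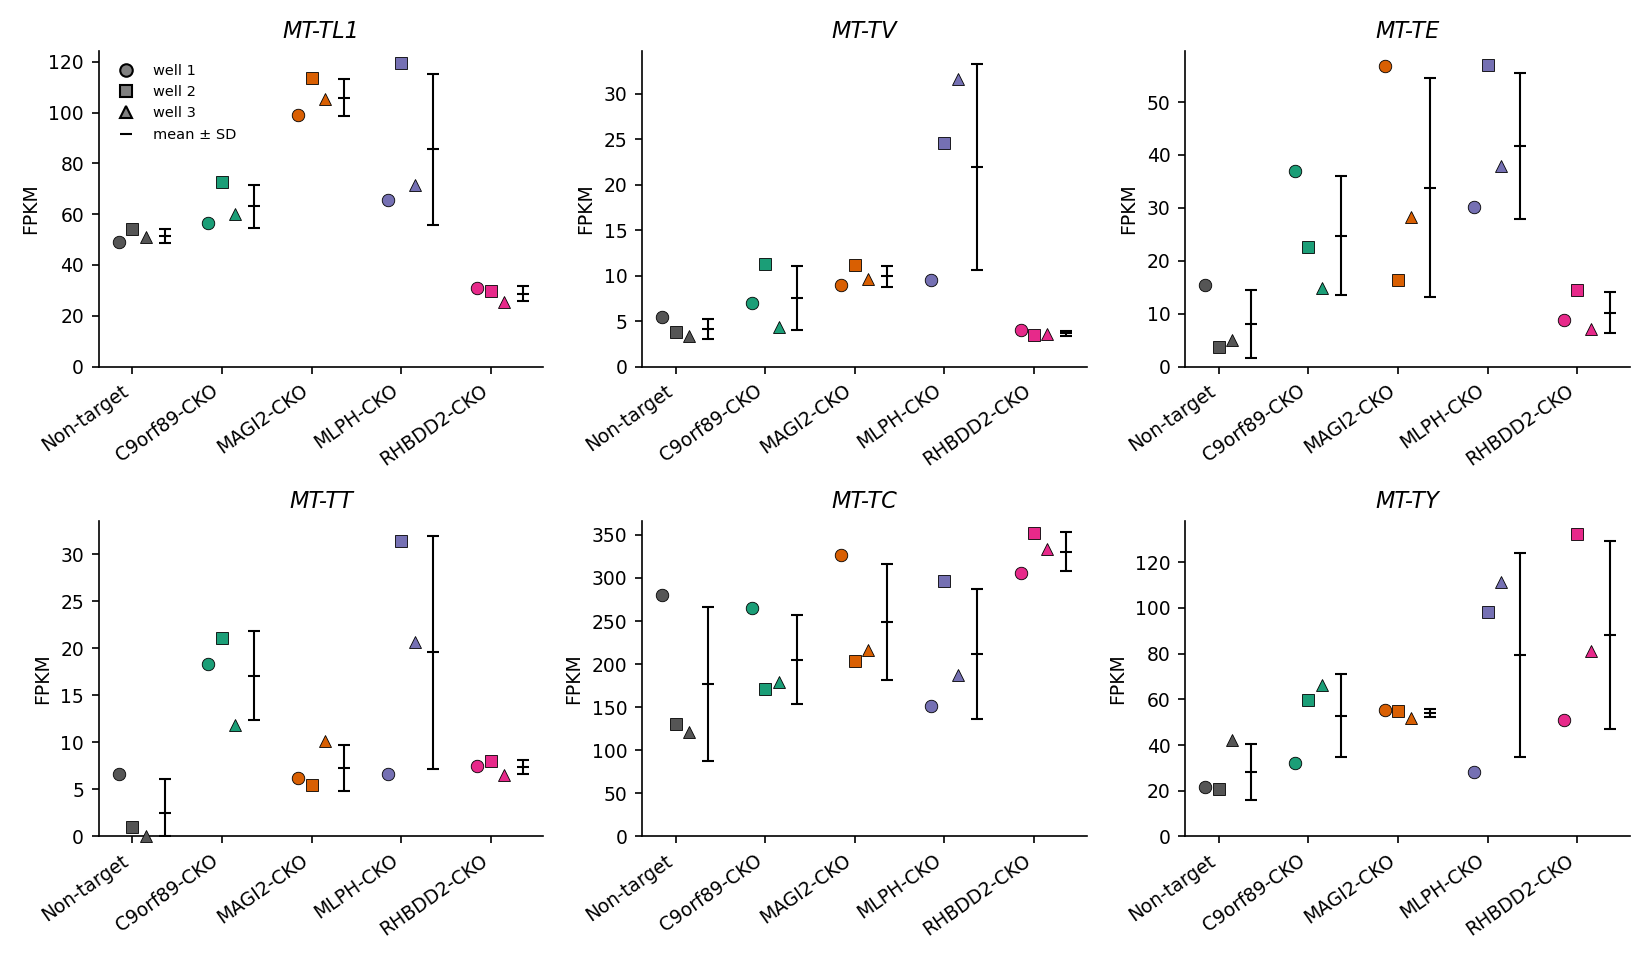
FPKM of the 6 tRNA genes that passed against Non-target, in each of the 15 libraries, with symbols for wells 1 to 3 and black bars for the mean ± SD of the group, which stop at 0 FPKM. MT-TL1 is below Non-target in RHBDD2-CKO and above it in MAGI2-CKO and MLPH-CKO.

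Copies of mitochondrial genes in the nuclear genome can take or give fragments. GENCODE v29 annotates 407 of them, which together held 67677 fragments, and 5 passed the filter. MTATP6P1 on chromosome 1 (633696 to 634376, GRCh38) averaged 199 FPKM and MTND2P28 99.7. In MTATP6P1 the 3 MLPH-CKO wells were at 223, 398 and 482 FPKM and the Non-target wells at 177, 136 and 144 (log2 fold change 1.21, limma adjusted p = 0.00615). MTCO1P12, the copy of MT-CO1, was at 3.64, 2.98 and 4.10 FPKM in RHBDD2-CKO against 6.78, 6.28 and 7.05, and it fell by 0.90 (adjusted p = 0.0229). No other copy passed against Non-target. These copies are nearly identical to MT-ATP6, MT-ND2 and MT-CO1, so part of their fragments may belong to the mitochondrial genes or the reverse, and the values of those genes are uncertain to that extent. With the copies added, the mean share was 1.96% in Non-target and 3.15% in MLPH-CKO.

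Nuclear genes that transcribe, process and decay mitochondrial RNA, or copy the genome, were compared with Non-target as 5 lists of 79 genes, all of which passed the filter. Over the clones, 9, 12, 8 and 12 of them rose and 15, 21, 21 and 14 fell. Their median log2 fold changes were -0.09, -0.05, -0.07 and -0.01, against medians within 0.01 of 0 over all genes. The counts that passed, 24, 33, 29 and 26 of 79, stand beside 26.0%, 36.1%, 30.1% and 34.1% of all genes. Scaling every library to the same FPKM sum raised the median of all genes in RHBDD2-CKO by 0.15, and 4350 genes then rose and 1566 fell there, in place of 2813 and 2698.

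Of the transcription machinery, POLRMT, the mitochondrial RNA polymerase, passed in no clone, at 38.1 ± 8.56 FPKM in Non-target and between 32.0 and 42.5 in the clone means. TFAM, which packages the genome and opens its promoters, fell in MLPH-CKO by 0.67 (SE 0.13, limma adjusted p = 0.00165) and in RHBDD2-CKO by 0.41 (adjusted p = 0.0233). Its mean was 30.1 ± 3.63 FPKM in Non-target, 18.9 ± 1.86 in MLPH-CKO and 22.5 ± 2.50 in RHBDD2-CKO. TFB2M, the initiation factor, fell in MAGI2-CKO by 0.42 (adjusted p = 0.00244) and rose in RHBDD2-CKO by 0.25 (adjusted p = 0.0430). TEFM, the elongation factor, passed in none. MRPL12, a ribosomal protein that also binds POLRMT, fell by 0.68 in C9orf89-CKO and by 0.80 in RHBDD2-CKO (adjusted p = 5.26e-05 and 9.83e-06). TFB1M, an rRNA methyltransferase, fell by 0.64 in MAGI2-CKO. In all, 3, 3, 5 and 2 of the 10 genes of this list fell over the clones, and 1 rose, in RHBDD2-CKO, beside the same 26.0% to 36.1% of all genes. Without the wells numbered 1, the counts that passed were 3, 5, 3 and 3 of the 10, beside 32.4%, 40.4%, 36.9% and 42.0% of all genes in that fit.

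Of the 13 RNA processing genes, TRMT10C, the methyltransferase subunit of mitochondrial RNase P, differed in direction between clones. It was at 45.9 ± 1.96 FPKM in Non-target and 61.1 ± 5.82 in RHBDD2-CKO, with MAGI2-CKO at 29.5 ± 3.02 and MLPH-CKO at 32.1 ± 2.90. It fell by 0.64 (limma adjusted p = 0.000104) in MAGI2-CKO and by 0.52 (adjusted p = 0.000781) in MLPH-CKO. It rose by 0.41 (adjusted p = 0.00331) in RHBDD2-CKO. ELAC2, which cuts tRNA 3′ ends, fell in MAGI2-CKO by 0.32 (adjusted p = 0.0295) and did not pass elsewhere. The FASTK family binds and processes these RNAs. FASTKD2 fell in MAGI2-CKO and MLPH-CKO by 0.25 and 0.30, FASTKD5 in the same clones by 0.40 and 0.19, and TBRG4 in MAGI2-CKO by 0.62. FASTKD1 rose by 0.25 in C9orf89-CKO and 0.22 in RHBDD2-CKO, FASTKD3 by 0.23 in RHBDD2-CKO and FASTK by 0.48 in MAGI2-CKO. PRORP, the nuclease of RNase P, rose by 0.43 in C9orf89-CKO and PTCD3, a ribosomal RNA-binding protein, by 0.17 in both MAGI2-CKO and MLPH-CKO.

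Of the 12 stability and decay genes, MTPAP, the poly(A) polymerase of mitochondria, rose in 3 clones. It was at 3.50 ± 0.178 FPKM in Non-target, against 5.48 ± 0.509, 5.16 ± 0.325 and 4.46 ± 0.0833 in every clone but RHBDD2-CKO. The log2 fold changes were 0.63 (limma adjusted p = 0.000234), 0.55 (adjusted p = 0.000385) and 0.34 (adjusted p = 0.0113), while RHBDD2-CKO, at 0.20, did not pass (adjusted p = 0.103). SUPV3L1, the helicase of the degradosome, rose by 0.24, 0.26 and 0.25 in the same 3 clones, and its nuclease partner PNPT1 fell by 0.36 in MAGI2-CKO. LRPPRC, which stabilizes the heavy-strand mRNAs, rose by 0.36 in RHBDD2-CKO (adjusted p = 0.000619). Its partner SLIRP fell there by 0.57 and in C9orf89-CKO by 0.46. GRSF1, of the RNA granules, fell by 0.25 in MAGI2-CKO and 0.49 in MLPH-CKO. REXO2, an oligoribonuclease, fell by 0.98 in MAGI2-CKO (adjusted p = 3.35e-05).

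**Figure D5:**
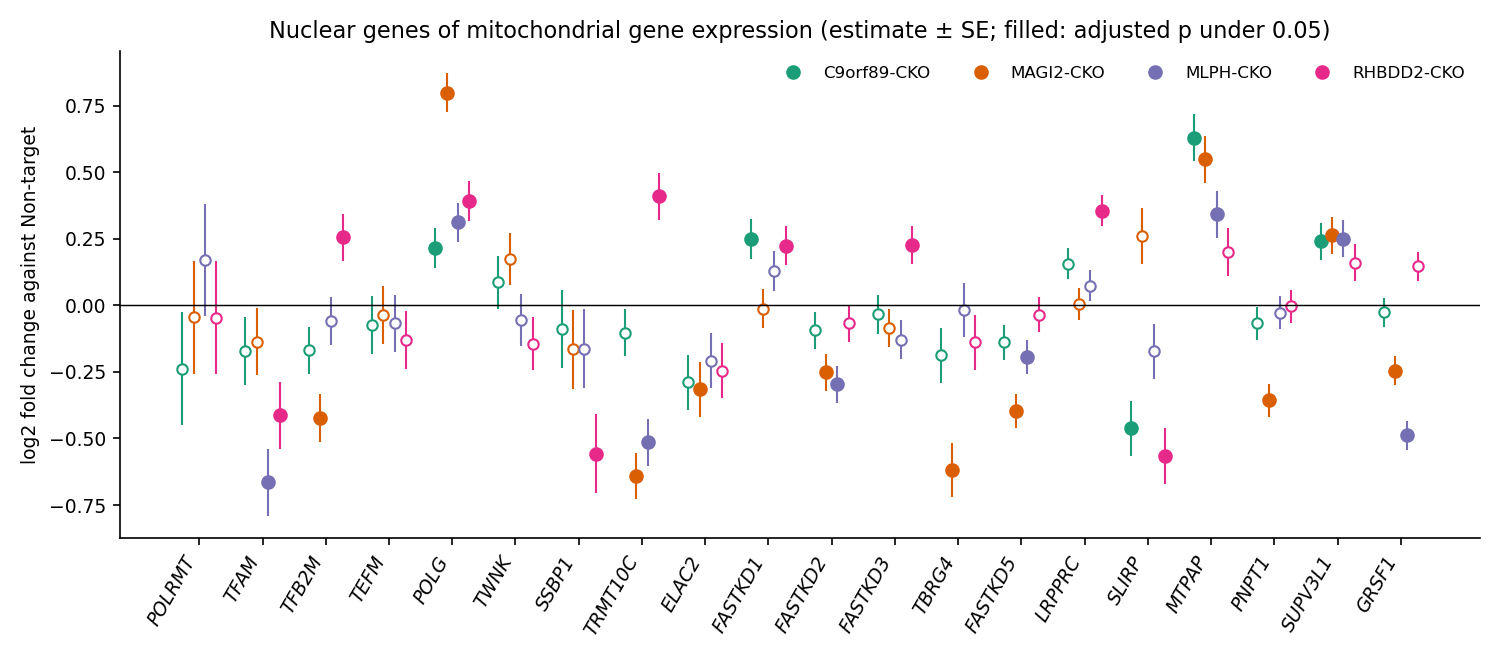
Log2 fold change against Non-target of 20 nuclear genes of mitochondrial transcription, replication, RNA processing and RNA stability, with 1 colour per clone, bars of ± SE and filled points where the limma adjusted p is under 0.05. TRMT10C is filled below 0 in MAGI2-CKO and MLPH-CKO and above 0 in RHBDD2-CKO, and POLG is filled above 0 in all 4 clones.

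Among the 19 genes of genome replication and nucleotide supply, 5 passed the same way in all 4 clones, 3 higher and 2 lower, as did 6.65% of all genes tested (3.39% higher and 3.26% lower). All 4 comparisons share 1 control clone, so a level particular to that clone would give the same result. TOP3A, a topoisomerase that separates replicated circles, was at 10.1 ± 0.697 FPKM in Non-target and at 20.3 ± 0.929, 23.5 ± 1.49, 22.4 ± 2.27 and 23.02 ± 0.830 in the clones. It rose by 1.00, 1.21, 1.14 and 1.18, with limma adjusted p from 2.4e-07 to 1.97e-06. POLG, the replicative polymerase, rose by 0.21, 0.80, 0.31 and 0.39, and SLC25A33, a pyrimidine nucleotide carrier, by 0.64, 0.79, 0.72 and 0.76. LIG3, the mitochondrial ligase, fell by 0.40, 0.37, 0.46 and 0.33, and EXOG, a nuclease, by 0.38, 0.38, 0.48 and 0.43. TWNK, the helicase, passed in none, and SSBP1, the single-strand binding protein, fell by 0.56 in RHBDD2-CKO.

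Of the 25 genes that modify mitochondrial rRNA and tRNA, 3 fell in all 4 clones, beside the 3.26% of all genes. PUS1, a pseudouridine synthase, was at 20.03 ± 0.612 FPKM in Non-target and fell by 0.73, 0.87, 0.65 and 0.49. TRNT1, which adds the CCA end that the tRNA genes do not encode, fell by 0.48, 0.53, 0.51 and 0.40. MRM2, a methyltransferase of the large-subunit rRNA, fell by 0.24, 0.60, 0.22 and 0.20. OSGEPL1, which modifies tRNAs, rose by 0.29, 0.50 and 0.32 in every clone but RHBDD2-CKO. In RHBDD2-CKO, TRMT61B fell by 0.72 and NSUN3, which modifies the methionine tRNA, rose by 0.40.

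The nuclear-encoded partners of the mitochondrial subunits were counted in the same way. Of 36 complex I genes tested, 8, 4, 4 and 10 fell over the clones, and 1 rose, NDUFV3 in MAGI2-CKO (0.28, limma adjusted p = 0.0162). The 8, 5, 4 and 10 that passed stand beside 26.0%, 36.1%, 30.1% and 34.1% of all genes. Without the wells numbered 1, 19, 17, 18 and 25 passed, beside 32.4%, 40.4%, 36.9% and 42.0%. Medians were -0.19, -0.12, -0.12 and -0.28. The largest falls without overlap were of NDUFS6 in C9orf89-CKO (fell by 0.86) and RHBDD2-CKO (fell by 0.94), NDUFS4 in MAGI2-CKO (fell by 0.57) and NDUFV1 in MLPH-CKO (fell by 0.45). Of 38 genes of complexes II to V, 3, 1, 2 and 1 rose and 8, 11, 5 and 14 fell, which makes 11, 12, 7 and 15, and without the wells numbered 1 it was 19, 20, 17 and 25, beside the same shares. SDHB, a complex II subunit, rose in all 4 clones, from 31.1 ± 2.26 FPKM in Non-target to between 39.0 and 43.6. UQCRC1, a core subunit of complex III, fell in all 4, from 106 ± 12.1 FPKM to between 68.5 and 77.7. SDHD, COX6A1 and ATP5MC3 also fell in all 4. In all, 6 of the 38 passed the same way in all 4 clones, as did 6.65% of all genes tested. ATP5F1A, the alpha subunit of ATP synthase, fell by 1.24 in MAGI2-CKO, from 53.0 ± 4.44 to 22.4 ± 0.693 FPKM (adjusted p = 5.84e-07), while the mRNA estimates of the mitochondrial subunits MT-ATP6 and MT-ATP8 there were 0.51 and 0.62 and did not pass.

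Smaller lists were examined beside these. Of 9 regulators of mitochondrial biogenesis tested, 5, 3, 4 and 4 passed over the clones, beside 26.0% to 36.1% of all genes. In the fit without wells 1 the counts were 4, 4, 5 and 6, beside 32.4% to 42.0%. ESRRA fell in all 4 clones, by 0.43, 0.42, 0.38 and 0.41, and MYC fell in C9orf89-CKO and MLPH-CKO, by 1.04 and 0.88. PPRC1 rose in these same clones by 0.35 and 0.29, YY1 rose by 0.43 in MAGI2-CKO and PPARGC1B by 0.53 in RHBDD2-CKO. Of 11 markers of mitochondrial mass, 3, 4, 4 and 2 passed over the clones, and 5, 5, 8 and 7 in the fit without wells 1, beside the same shares. All 4 that passed in MAGI2-CKO fell. TOMM40, the import channel, fell in all 4 clones by 0.40, 0.30, 0.34 and 0.26. CS, citrate synthase, rose by 0.22 in C9orf89-CKO and CYCS, cytochrome c, fell by 0.92 in MAGI2-CKO. VDAC1 fell by 0.38 and VDAC2 rose by 0.30 in MLPH-CKO, and PHB2 fell by 0.33 in RHBDD2-CKO. Of 18 genes of the mitochondrial stress response tested, 6, 3, 7 and 6 fell over the clones and 2 rose, both in MAGI2-CKO. These 6, 5, 7 and 6 stand beside the same shares of all genes, 26.0% to 36.1%, and the 12, 9, 11 and 9 without the wells numbered 1 beside 32.4% to 42.0%. PHGDH and PSAT1, of serine synthesis, fell in all 4 clones, as did 3.26% of all genes tested. The falls of PHGDH were 0.59, 0.53, 0.52 and 0.86. CHAC1 fell by 0.88 in both C9orf89-CKO and RHBDD2-CKO and rose by 0.57 in MAGI2-CKO, and DDIT4, another stress gene, fell by 0.59, 0.81 and 0.84 in every clone but MAGI2-CKO, where it rose by 0.49.

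RNAs that a poly(A) selection should leave behind were listed to follow how the libraries were made. Of 12 such RNAs, 7 passed the filter and the other 5 were at 0 in every library. RN7SL1 was among those 5, while RN7SL2 reached 960 FPKM in well 1 of MLPH-CKO. How reads that map to several places were counted is not given in the sources used here. The zeros are therefore not read as removal by poly(A) selection. RN7SL2 was the most abundant in every group but RHBDD2-CKO, and the summed level was 818, 454 and 381 FPKM in Non-target and 59.2 to 993 over all libraries. RN7SL2 fell in RHBDD2-CKO (175, 29.5 and 24.4 FPKM against 795, 432 and 358, limma adjusted p = 0.0121). SNORD3A rose in C9orf89-CKO by 2.16 and in MAGI2-CKO by 2.81, from levels of 0.0815 to 0.277 FPKM in Non-target. HIST1H1C, a histone gene, rose by 3.07 in RHBDD2-CKO, 0.79 in MAGI2-CKO and 0.63 in MLPH-CKO, and it fell by 1.09 in C9orf89-CKO. Of the long nuclear-retained RNAs, NEAT1 fell by 1.88 in MLPH-CKO and 2.23 in RHBDD2-CKO. In C9orf89-CKO 1 of the 2 tested fell too, with NEAT1 at 0.905, 0.388 and 0.337 FPKM against 1.90, 0.888 and 1.03. In MAGI2-CKO 1 rose, with MALAT1 at 3.89, 2.81 and 2.03 FPKM against 2.27, 1.26 and 1.33. The part of poly(A) selection in the rRNA, tRNA and MT-ND6 results was not tested.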

How the data were processed

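HEK293T clones were sequenced as poly(A) RNA libraries without strand marking on an Illumina NovaSeq. Per the labels, the authors used HISAT2 2.0.5, featureCounts 1.5.0-p3 and DESeq2, and the deposited values are FPKM per gene. The genome build, and the treatment of reads that touch 2 genes or map to several places, are not given in the sources used here. Gene identifiers and lengths match GENCODE v29 (GRCh38). FPKM times gene length gave whole multiples of 1 step per library for 100% of values (within 0.01 fragments, in proportion for large values), and these fragments were used for shares, ratios and depth.

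Log2(FPKM + 0.1) of the 16175 genes reaching 0.5 FPKM in 3 or more libraries was fitted with limma 3.58.1 (trend, all 15 libraries, R 4.3.3), with Benjamini-Hochberg adjustment and a threshold of 0.05. Shares and ratios were tested by exact permutation in Python 3.11.15. The fit was tested on simulated data. Members and gene lists were chosen with earlier results of these data known. The text names all 37 genes, 20 nuclear genes of mitochondrial expression, up to 5 members per list passing alike in all 4 clones, and per list and clone the largest rise and fall without overlap. Alternatives are given in the closing section.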

Additional observations from a re-analysis of the deposited data

Results flagged for a closer look

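MT-TL1 was the only mitochondrial gene that passed the test against Non-target in opposite directions in different clones. It was higher in MAGI2-CKO and MLPH-CKO and lower in RHBDD2-CKO. The difference between the log2 fold changes of MAGI2-CKO and RHBDD2-CKO was 1.88 (SE 0.18, limma adjusted p = 3.7e-06), and that between MLPH-CKO and RHBDD2-CKO was 1.52 (SE 0.18, adjusted p = 3.03e-05). Both differences passed in 26 of 26 alternatives. The counts behind them were 31 to 42 fragments per library in RHBDD2-CKO. The longest fragment that touches MT-TL1 alone is 77 bases, and the part of fragment length in these differences was not tested.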

How the results depend on the processing

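With wells 2 and 3 alone, an alternative chosen after seeing the data, the counts against Non-target over the clones were 9, 19, 24 and 12 of 37. Between clones they were 12 for C9orf89-CKO and MAGI2-CKO (31.2% of all genes), 16 for C9orf89-CKO and MLPH-CKO (19.5%), 10 for MAGI2-CKO and MLPH-CKO (25.8%), and 22 and 25 for MAGI2-CKO and MLPH-CKO against RHBDD2-CKO. In that setting the log2 difference of the share between MLPH-CKO and Non-target was 1.08, that of the rRNA to mRNA ratio between RHBDD2-CKO and Non-target 0.064, the exact p of MT-ND6 0.0328, and MT-TI in RHBDD2-CKO turned to 0.91.

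With the replicate block, 9 genes passed in MAGI2-CKO and 8 in RHBDD2-CKO against Non-target. Between clones, 5 passed for C9orf89-CKO and MAGI2-CKO and 4 for MAGI2-CKO and MLPH-CKO. The share of all genes called with the block in those between-clone comparisons is not given here, so these counts are not read against one. The exact p of MT-ND6 was 0.00993 (adjusted 0.0149). The share, permuted within the numbers, had an exact p of 0.0455 that stayed 0.0455 after adjustment, and so passed where it had not. Among the mRNAs the block gave 2 higher in MAGI2-CKO, 3 higher in MLPH-CKO, 1 lower in C9orf89-CKO and 3 lower in RHBDD2-CKO. Over the clones in alphabetical order it called 35.4%, 44.3%, 38.9% and 43.5% of all genes, 19, 11, 11 and 23 of 36 complex I genes, 19, 15, 11 and 22 of 38 genes of complexes II to V, and 10, 7, 10 and 8 of 18 stress genes. The numbers were not taken as pairs, since not every same-numbered pair of libraries correlated over 0.1. All 10 pairs numbered 1 did (lowest 0.128, median 0.212), against 1 of 10 numbered 2 (lowest 0.00103) and 1 of 10 numbered 3 (lowest 0.0559). Differently numbered pairs had a median of -0.0887, and 12 of 15 libraries correlated best with their own number, a hint from the data and not from the design. The correlations are of deviations from group means, which cancel out over the 3 wells of a group. The negative median is therefore tied to the positive same-numbered values and is not a separate comparison.

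With no filter, 1 and 2 genes passed in C9orf89-CKO and RHBDD2-CKO against Non-target, 0 between C9orf89-CKO and MLPH-CKO, 2 between C9orf89-CKO and RHBDD2-CKO, 1 between MAGI2-CKO and MLPH-CKO, and 5 between MAGI2-CKO and RHBDD2-CKO. With only the 6 libraries of a comparison, 0 passed in C9orf89-CKO and 5 in MLPH-CKO against Non-target. With voom, 13 passed in MLPH-CKO against Non-target, 2 between C9orf89-CKO and MAGI2-CKO and 1 between C9orf89-CKO and MLPH-CKO, and each FPKM-sum scaling and quantile normalization gave 1 for that last pair. Quantile normalization gave 1 between MAGI2-CKO and MLPH-CKO, 5 and 7 for MAGI2-CKO and MLPH-CKO against RHBDD2-CKO, and turned MT-CO2 (-0.087) and MT-CO1 (-0.11) of the last. Over the comparisons run, the share of all genes called was 5.9% to 20.7% with no filter, 20.4% to 31.9% with only 6 libraries, 14.6% to 42.9% with voom and 14.7% to 42.2% with quantile normalization. For the FPKM-sum scalings that share is not given here, so their count is not read against one. The exact p of the share was 0.0915 from FPKM sums and 0.0520 without the rRNA genes. The causes were not tested.

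Leaving out 1 library at a time, the counts against Non-target ranged from 1 to 4, 3 to 13, 6 to 15 and 1 to 5 over the clones. They ranged from 1 to 4 between C9orf89-CKO and MAGI2-CKO, 0 to 3 between C9orf89-CKO and MLPH-CKO, and 0 to 4 between MAGI2-CKO and MLPH-CKO. Against RHBDD2-CKO they ranged from 2 to 5 for C9orf89-CKO and 5 to 17 for MAGI2-CKO. Without well 1 of Non-target, the 13 in MAGI2-CKO and 15 in MLPH-CKO stand beside 33.7% and 26.8% of all genes. The 2 and 5 against RHBDD2-CKO, each without well 1 of the other clone, stand beside 26.3% and 39.0%. Not every other fit has its share of all genes given here, so the remaining ends of these ranges are not read against one. The nuclear genes that passed in C9orf89-CKO ranged from 15 (without its replicate 3) to 26. Depth limited the tRNAs, where 3 fragments are 2.20 FPKM or more.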
